A study of Mus musculus with 5 samples.

Results

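Interleukin-6 (IL-6) and its relatives, together with interleukin-33 (IL-33) and its receptor, were followed here as 9 genes of the 31055 genes listed in each count matrix. The ligands were Il6, Lif and Il33, and the receptor chains were Il6ra, Il6st, Osmr, Il11ra1, Il1rl1 and Il1r1. These genes had been picked with earlier values of the same libraries in view, so their levels and the differences between conditions are given as a description, with no test.

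The cells were GFP+ cells sorted from skeletal muscle around the tibia of adult C57Bl/6 mice carrying Prx1Cre and the mTmG reporter, in which Cre driven by the Prx1 limb enhancer switches GFP on for good in the limb mesenchymal lineage. All conditions shared this genotype and this gate, and muscle was dissected without periosteum and bone marrow. There were 5 droplet libraries, each pooled from a pair of mice and each the only library of its condition: d0 (uninjured), d3 and d5 after a non-stabilized tibial fracture, and d3 and d5 after polytrauma, which is the same fracture with mechanical injury to the surrounding muscles. The conditions of 2 libraries follow the cell numbers of the study rather than the labels: d3 polytrauma here is the library that carries a d5 post-fracture label, and d5 fracture here is the one that carries a d3 post-polytrauma label.

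IL-6, leukemia inhibitory factor (LIF), oncostatin M and IL-11 each bind a receptor chain of their own or share one, and all signal through gp130, the product of Il6st, which activates JAK kinases and STAT3. IL-33 is an alarmin kept in the nucleus and set free from damaged cells, and it signals through ST2, the product of Il1rl1, with the accessory chain IL1RAP. In injured muscle, stromal cells are a known source of IL-6 and of IL-33, and ST2 is best known on regulatory T cells, mast cells and type 2 innate lymphoid cells.

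After filtering, 29831 of 34439 barcodes were retained, from 1468 cells (d5 fracture) to 11941 cells (d5 polytrauma) per library. The median depth ran from 3640 UMIs per cell at d0 to 34949 at d5 fracture, so shares of cells with a UMI are given after drawing 2000 UMIs per cell. Cells with fewer than 2000 UMIs are left out of these shares. They were 744 of 4632 cells at d0, 225 of 5589 at d3 fracture, 83 of 6201 at d3 polytrauma, 30 of 1468 at d5 fracture and 424 of 11941 at d5 polytrauma. Levels are given as CPM (UMIs of a gene per 1000000 UMIs summed over the cells of a library). Intervals are exact 95% Poisson intervals of the counts, or exact binomial (Clopper-Pearson) intervals of shares, and they cover counting error only. The d0 and d3 libraries drew on 1 set of cell barcodes and the d5 libraries on another, with at most 3 barcodes in common across the sets, so d5 and library preparation cannot be told apart. The library used as d3 polytrauma drew on the set of d0 and d3 fracture, and the one used as d5 fracture on the set of d5 polytrauma. The d5 fracture library shared 944 of its 2001 barcodes with the d5 polytrauma library, and 869 of its 1468 retained cells carried a barcode found in another library. Values of this library are therefore also given without those cells, which leaves 599 of them and 12336788 of 51864740 UMIs. A milder rule, chosen after seeing the data, which removes a cell only if its UMIs are under 10 times those of the same barcode in the other library, leaves 1457 cells, and under it none of the 54 log2 differences of the members moved beyond its counting interval. In a sum over cells, fewer cells of a type and fewer transcripts per cell cannot be told apart, so levels within clusters follow the levels of the libraries.

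Among the ligands, Il6, which encodes the founding cytokine of the family, was highest before injury. Its level was 478 CPM (468 to 489) at d0, 138 (136 to 141) at d3 fracture, 163 (161 to 166) at d3 polytrauma, 161 (157 to 164) at d5 fracture and 58.9 (57.9 to 60.0) at d5 polytrauma. The d0 library stood above all others and the d5 polytrauma library below all others, while the intervals of d3 polytrauma and d5 fracture overlapped. On the log2 scale the difference from d0 was -1.79 (-1.83 to -1.75) at d3 fracture and -1.55 (-1.59 to -1.51) at d3 polytrauma. At d5 polytrauma the level was 2.73-fold lower than at d5 fracture (log2 -1.45, -1.49 to -1.41). Without cells whose barcode was found in another library, d5 fracture had 115 CPM, its difference from d3 fracture went from 0.22 to -0.27 and the difference of d5 polytrauma from d5 fracture from -1.45 to -0.96. Under the milder rule these differences were 0.22 and -1.45.

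The share of cells with an Il6 UMI was also highest at d0 and lowest at d5 polytrauma. It was 29.2% at d0, 18.3% at d3 fracture, 20.9% at d3 polytrauma, 16.8% at d5 fracture and 9.27% at d5 polytrauma. Unlike the level, the share at d5 fracture (14.9 to 18.8) was not above that at d3 fracture (17.2 to 19.3), and it was below that at d3 polytrauma (19.9 to 22.0). A small number of cells carried much of the transcript. After drawing 2000 UMIs per cell, the highest cell held 51 Il6 UMIs at d0, 32 at d3 fracture and 46 at d3 polytrauma, against 7 at d5 fracture and 6 at d5 polytrauma. Cells with 10 or more Il6 UMIs numbered 75 at d0, 17 at d3 fracture and 19 at d3 polytrauma, and none was seen in either d5 library. Immediate early and stress genes, 11 genes that tissue dissociation is known to induce, summed to 18684 CPM at d0, 5121 at d3 fracture, 3255 at d3 polytrauma, 13544 at d5 fracture and 7968 at d5 polytrauma. The d0 library was the highest in these genes as in Il6, and their part in the Il6 level was not tested.

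Il6 lies on chromosome 5 of GRCm38, from 30013114 to 30019981 on the plus strand (ENSMUSG00000025746). The 250 bases before its RefSeq start, chr5:30012864-30013113 (GRCm38.p6, plus strand), are shown because Il6 was the member with the most matches to the motifs searched. Matches were sought on both strands to TGANTCA (AP-1), TTNNGCAA (C/EBP), GGANTTTCC (NF-kB type) and TTCNNNGAA (STAT), and the capitals mark the AP-1 match 249 bases before the start, the C/EBP match at 128 and the NF-kB-type match at 43.
Il6 promoter: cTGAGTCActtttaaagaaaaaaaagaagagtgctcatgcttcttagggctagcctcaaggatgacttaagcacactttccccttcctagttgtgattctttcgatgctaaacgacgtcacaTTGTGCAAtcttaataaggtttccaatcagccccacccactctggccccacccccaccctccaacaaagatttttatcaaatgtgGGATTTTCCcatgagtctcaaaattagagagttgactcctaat
Of 32851 RefSeq promoters of the same length, 6.75% held the AP-1 motif, 9.56% the C/EBP motif, 1.07% the NF-kB-type motif and 7.02% the STAT motif. None of the 13 promoter entries of the 9 members held the STAT motif, and a match in letters does not show a site in use.

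Lif, which encodes leukemia inhibitory factor, had the opposite order to Il6 at d0 and d3. Its level was 8.43 CPM (7.12 to 9.91) at d0, 54.9 (53.5 to 56.4) at d3 fracture, 31.8 (30.7 to 32.9) at d3 polytrauma, 28.0 (26.5 to 29.4) at d5 fracture and 22.5 (21.8 to 23.1) at d5 polytrauma. All 5 intervals were apart, with d0 lowest and d3 fracture highest. The log2 difference from d0 was 2.70 (2.47 to 2.95) at d3 fracture and 1.91 (1.68 to 2.16) at d3 polytrauma, and d0 rested on 147 UMIs. The share of cells with a Lif UMI was 1.36% at d0 and 8.63% at d3 fracture. The gene lies on chromosome 11 from 4257557 to 4272514, plus strand (ENSMUSG00000034394), and its promoter held the AP-1 motif 228 bases before the start.

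Il33, the gene of the alarmin, was highest at d3 polytrauma. Its level was 86.4 CPM (82.1 to 90.9) at d0, 82.6 (80.8 to 84.4) at d3 fracture, 157 (155 to 159) at d3 polytrauma, 49.5 (47.6 to 51.5) at d5 fracture and 38.9 (38.0 to 39.7) at d5 polytrauma. The d0 and d3 fracture libraries overlapped within counting error, and both d5 libraries were below them. Between d3 and d5 polytrauma the level was 4.04-fold lower at d5 (log2 -2.01, -2.05 to -1.97). Cells with an Il33 UMI made up 10.7% at d0, 13.3% at d3 fracture, 21.3% at d3 polytrauma, 8.48% at d5 fracture and 5.56% at d5 polytrauma. Without cells whose barcode was found in another library, the level at d5 fracture was 44.3 CPM. Il33 lies on chromosome 19 from 29925114 to 29960718, plus strand (ENSMUSG00000024810).

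**Figure D1:**
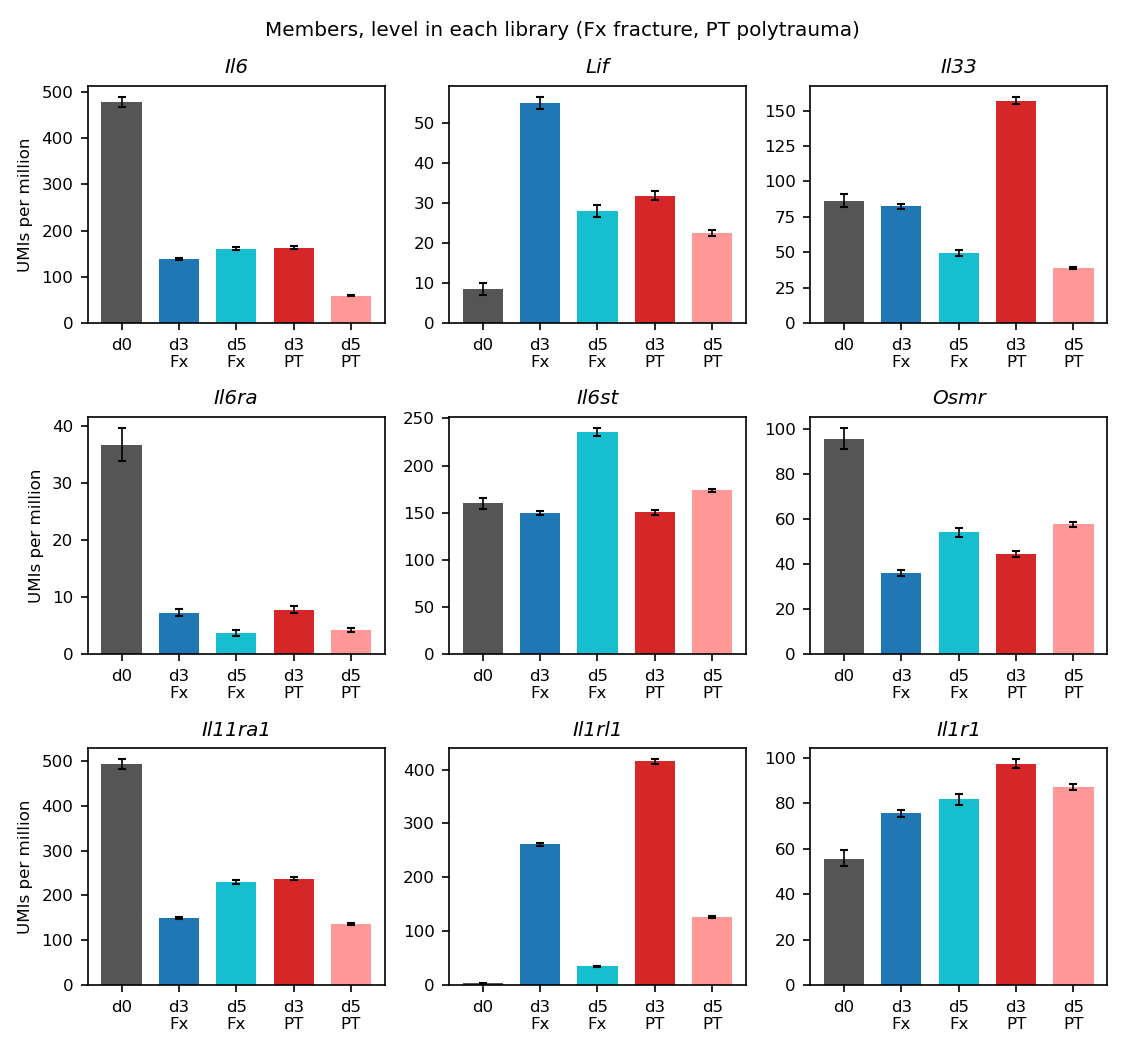
Level of each of the 9 genes in the 5 libraries, as bars in CPM from 0, each panel with its own scale, with exact 95% Poisson intervals (counting error only). Il1rl1 runs from 3.61 at d0 to 415 at d3 polytrauma, while Il6st lies between 149.8 and 235 in all 5 libraries.

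Among the receptors, Il1rl1, which encodes ST2, had the widest range of the 9 genes, 115-fold from lowest to highest library. Its level was 3.61 CPM (2.78 to 4.62) at d0, 261 (258 to 264) at d3 fracture, 415 (411 to 419) at d3 polytrauma, 34.5 (32.9 to 36.1) at d5 fracture and 127 (125 to 128) at d5 polytrauma. All 5 intervals were apart, and d0 was the lowest. The log2 difference from d0 was 6.18 (5.82 to 6.56) at d3 fracture, 72.3-fold, and 6.84 (6.49 to 7.22) at d3 polytrauma. Both d5 libraries were below the d3 library of the same injury, by 7.57-fold after fracture and 3.28-fold after polytrauma, and polytrauma was above fracture at both days, by 1.59-fold at d3 and 3.67-fold at d5. Without cells whose barcode was found in another library, d5 fracture had 25.1 CPM. With the conditions as deposited, the Il1rl1 difference between d3 polytrauma and d3 fracture would be -2.92 on the log2 scale in place of 0.67, so the order of the injuries rests on the assignment of the libraries.

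The share of cells with an Il1rl1 UMI was 0.437% at d0, 29.7% at d3 fracture, 44.0% at d3 polytrauma, 4.52% at d5 fracture and 14.2% at d5 polytrauma. Before the draw of 2000 UMIs, which evens out depth, the shares over all retained cells were 0.626%, 64.6%, 78.9%, 24.7% and 41.5% in the order d0, d3 fracture, d3 polytrauma, d5 fracture and d5 polytrauma. The d0 level rested on 63 UMIs in 29 cells, of which 22 cells held 1 UMI each, and the 5 highest cells held 37 of the 63 UMIs. Of these 29 cells, 2 carried a barcode found in another library.

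ST2 is made in a soluble and a membrane form, which the deposited counts, summed per gene, do not tell apart. Il1rl1 lies on chromosome 1 from 40429570 to 40465415, plus strand (ENSMUSG00000026069). The 250 bases before each of its RefSeq starts (GRCm38.p6, plus strand) are shown because the gene has the widest range and more than 1 start: the distal window is chr1:40429320-40429569 and the proximal window chr1:40439379-40439628.
Il1rl1 distal promoter: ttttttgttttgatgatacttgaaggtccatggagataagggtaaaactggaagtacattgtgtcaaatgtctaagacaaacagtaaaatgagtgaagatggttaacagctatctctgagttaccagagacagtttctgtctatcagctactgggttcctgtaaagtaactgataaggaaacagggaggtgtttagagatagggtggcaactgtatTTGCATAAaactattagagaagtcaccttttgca
Il1rl1 proximal promoter: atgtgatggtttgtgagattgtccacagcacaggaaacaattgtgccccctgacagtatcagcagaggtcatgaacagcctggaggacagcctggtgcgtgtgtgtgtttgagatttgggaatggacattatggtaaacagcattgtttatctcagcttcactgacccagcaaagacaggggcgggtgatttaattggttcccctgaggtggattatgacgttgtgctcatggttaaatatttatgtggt
The capitals mark a C/EBP match 34 bases before the distal start, and the proximal window held none of the 4 motifs.

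Il1rl1 sits in a run of 6 interleukin-1 family receptor genes on chromosome 1, all on the plus strand within 477627 bases: Il1r2, Il1r1, Il1rl2, Il1rl1, Il18r1 and Il18rap. Il18r1, the IL-18 receptor gene that starts 136 bases after the end of Il1rl1, had 0 UMIs at d0, 5.57 CPM at d3 fracture, 5.49 at d3 polytrauma, 0.212 at d5 fracture and 0.356 at d5 polytrauma. Against a floor of 3 counts at d0 (0.172 CPM) this is 32.4-fold higher at d3 fracture and 31.9-fold higher at d3 polytrauma. The exact interval of 0 UMIs at d0 reaches 0.212 CPM, above that floor, so these folds are not lower limits. Il18rap, the accessory chain gene, had 0 UMIs at d0, 2.59 CPM at d3 fracture, 2.60 at d3 polytrauma, 2.01 at d5 fracture and 4.45 at d5 polytrauma. Il1r2, a decoy receptor for IL-1, had 6.19 CPM at d0, 10.7 at d3 fracture, 17.9 at d3 polytrauma, 4.53 at d5 fracture and 6.64 at d5 polytrauma. Il18r1 and Il1r2 thus had their highest levels at d3 as Il1rl1 did, while Il18rap was highest at d5 polytrauma. Il1rl2, the IL-36 receptor gene, ranged from 7.32 to 12.1 CPM. Whether reads running past the end of Il1rl1 were counted for Il18r1 was not tested.

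Il1r1, which encodes the signalling receptor for IL-1, ranged 1.75-fold. Its level was 55.7 CPM (52.2 to 59.3) at d0, 75.5 (73.8 to 77.2) at d3 fracture, 97.4 (95.6 to 99.4) at d3 polytrauma, 81.8 (79.3 to 84.2) at d5 fracture and 87.2 (85.9 to 88.5) at d5 polytrauma. All 4 injured libraries were above d0, by less than 2-fold. Il1r1 lies on chromosome 1 from 40225080 to 40317257 (ENSMUSG00000026072).

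Il6ra, the chain that binds IL-6 itself, was highest at d0. Its level was 36.6 CPM (33.8 to 39.5) at d0, 7.26 (6.75 to 7.81) at d3 fracture, 7.79 (7.27 to 8.35) at d3 polytrauma, 3.68 (3.18 to 4.24) at d5 fracture and 4.21 (3.93 to 4.51) at d5 polytrauma. Fracture and polytrauma overlapped within counting error on each day. The log2 difference from d0 was -2.33 (-2.49 to -2.18) at d3 fracture, and the share of cells with a UMI was 7.10% at d0 against 0.755% to 1.91% in the injured libraries. Its exons on chromosome 3 (89864059 to 89913196, minus strand, ENSMUSG00000027947) overlap Gm42809 on the other strand.

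Il11ra1, the IL-11 receptor chain, and Osmr, the oncostatin M receptor chain, were also highest at d0. Il11ra1 had 493 CPM (483 to 504) at d0, 149.7 (147 to 152) at d3 fracture, 237 (234 to 240.3) at d3 polytrauma, 230.0 (226 to 234) at d5 fracture and 136 (134 to 138) at d5 polytrauma. Osmr had 95.6 CPM (91.1 to 100.3) at d0, 36.0 (34.8 to 37.2) at d3 fracture, 44.3 (43.1 to 45.6) at d3 polytrauma, 54.1 (52.2 to 56.2) at d5 fracture and 57.6 (56.6 to 58.7) at d5 polytrauma. In neither gene did the interval of d0 meet that of an injured library. The log2 difference of d3 fracture from d0 was -1.72 (-1.76 to -1.68) for Il11ra1 and -1.41 for Osmr. Il11ra1 lies on chromosome 4 (41699989 to 41769474, plus strand, ENSMUSG00000073889), where its exons overlap Ccl27a on the other strand, and its near copy Il11ra2 had 0 UMIs in all 3 of its rows. Osmr lies on chromosome 15 (6813577 to 6874969, minus strand, ENSMUSG00000022146).

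Il6st, the shared signalling chain gp130, had the narrowest range of the 9 genes, 1.57-fold. Its level was 159.7 CPM (154 to 166) at d0, 149.8 (147 to 152) at d3 fracture, 150.3 (148 to 153) at d3 polytrauma, 235 (231 to 239) at d5 fracture and 174 (172 to 176) at d5 polytrauma. The d3 libraries overlapped, and d5 fracture was the highest. Between 24.6% and 32.2% of cells had a UMI in each library. Il6st lies on chromosome 13 (112464070 to 112510086, plus strand, ENSMUSG00000021756), and without cells whose barcode was found in another library its level at d5 fracture was 195 CPM.

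Set against the whole table, the members did not all move one way. A gene was called past 2-fold when it had at least 20 UMIs in 1 of the 2 libraries compared. From d0 to d3 fracture, 2 of the 9 members were higher (Lif and Il1rl1) and 4 lower (Il6, Il6ra, Osmr and Il11ra1), where 13.8% of 14124 genes were higher and 31.9% lower. From d0 to d3 polytrauma the same 2 members were higher and the same 4 lower, where 14.1% of 14361 genes were higher and 31.0% lower. These comparisons share the d0 library, and Il11ra1 lay close to the limit at d3 polytrauma, with a log2 difference of -1.06. Because the members were picked on these contrasts, nothing is read from the shares.

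From d3 to d5 fracture, 0 members were past 2-fold higher and 1 was lower (Il1rl1), where 40.1% of 14511 genes were higher and 5.49% lower. From d3 to d5 polytrauma, 0 were higher and 3 lower (Il6, Il33 and Il1rl1), where 29.4% of 15565 genes were higher and 6.72% lower. Between d3 polytrauma and d3 fracture 0 members were past the limit in either direction, where 5.22% of 14278 genes were higher after polytrauma and 2.90% lower. Il33 came nearest, with a log2 difference of 0.93. Between d5 polytrauma and d5 fracture, Il1rl1 was higher and Il6 lower, where 3.80% of 15457 genes were higher and 13.2% lower.

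The median log2 difference of all genes was -0.43 for d3 fracture against d0, -0.42 for d3 polytrauma against d0, 0.71 for d5 against d3 fracture and 0.51 for d5 against d3 polytrauma. For the members these medians were -0.09, -0.09, 0.11 and -0.80. With libraries scaled by the median of ratios in place of their totals, the members higher and lower became 3 and 3 at d3 fracture, 4 and 2 at d3 polytrauma, 0 and 4 for d5 against d3 fracture, and 0 and 5 for d5 against d3 polytrauma. The share of all genes was not counted under that scaling, so nothing is read from these counts. Under that scaling Il33 and Il6st turned from slightly lower to higher at d3 fracture against d0 (log2 0.51 and 0.49), Il6st also at d3 polytrauma against d0 (0.44), Il6, Il6st, Osmr, Il11ra1 and Il1r1 from higher to lower at d5 against d3 fracture, and Il6st and Osmr from higher to lower at d5 against d3 polytrauma. Against d0, the sign of Lif, Il1rl1, Il6, Il6ra, Osmr and Il11ra1 at d3 was the same under both scalings, but Osmr (log2 -0.83 at d3 fracture and -0.58 at d3 polytrauma) and, at d3 polytrauma, Il11ra1 (-0.52) were then no longer past 2-fold.

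Dividing cells were rare before injury. Their 5 markers summed to 7.63 CPM at d0 and to between 331 and 529 in the injured libraries. Without cells with 2 of these markers, the log2 difference from d0 was -1.21 for Il6 at d3 fracture and -1.06 at d3 polytrauma, and for Il1rl1 it was 6.18 and 6.91. At d3 polytrauma 4 members were then past 2-fold higher and 2 lower, since Il33 and Il1r1 came above the limit and Osmr and Il11ra1 fell short of it. The share of all genes was not counted without these cells, so nothing is read from these counts.

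The assignment of the exchanged libraries bears on every comparison that holds one of them. With conditions as deposited, the members higher and lower were 2 and 3 for d3 polytrauma against d0, 0 and 0 for d5 against d3 fracture, 1 and 1 for d5 against d3 polytrauma, 0 and 1 for d3 polytrauma against d3 fracture, and 0 and 3 for d5 polytrauma against d5 fracture. The Il33 difference of d3 polytrauma from d0 was then -0.80 in place of 0.86, and that of d3 polytrauma from d3 fracture -0.74 in place of 0.93. The comparison of d3 fracture with d0 holds neither library. As deposited, the pairs other than d3 polytrauma against d0 join libraries compared above, where the shares of all genes are given. For d3 polytrauma against d0 as deposited, the share of all genes was not counted. Without cells whose barcode was found in another library, d5 fracture had 4.13 CPM of Il6ra, 46.5 of Osmr, 217 of Il11ra1, 79.0 of Il1r1 and 22.4 of Lif.

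**Figure D2:**
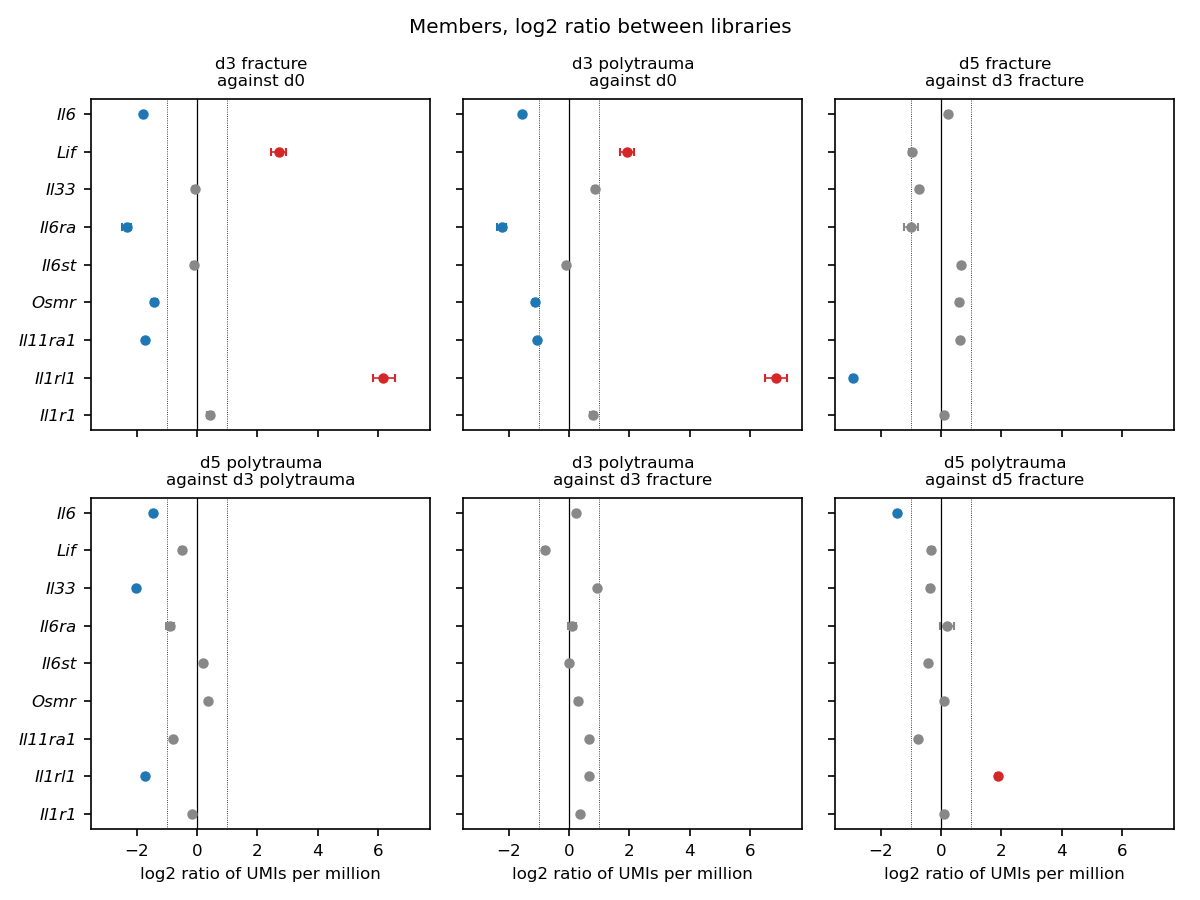
Log2 differences of the 9 genes in the 6 comparisons, with exact 95% intervals (counting error only) and dotted lines at 2-fold; red and blue mark members past 2-fold higher and lower. Il1rl1 lies at 6.18 and 6.84 in the comparisons of d3 with d0 and at -2.92 and -1.71 in those of d5 with d3.

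The cells of each library were clustered on their own, and clusters were called after marker genes (fibro-adipogenic or mesenchymal progenitor, FAP/MP-like; pericyte-like; tenocyte-like and so on). In the d0 library Il6 was highest in an FAP/MP-like cluster of 378 cells led by Inmt and Gdf10 (1394 CPM, 1320 to 1471) and in the pericyte-like cluster of 747 cells led by Tagln and Myh11 (1144 CPM, 1108 to 1182). The pericyte-like cluster held 18.4% of all UMIs and 44.1% of the Il6 UMIs. In the d3 fracture library the pericyte-like cluster of 65 cells led by Mustn1, Sncg and Myh11 had 1520 CPM. The one of 41 cells led by Rgs5 had 2274 CPM, and at d3 polytrauma the 54 pericyte-like cells had 1151 CPM. Pericyte-like cells thus had the highest or next highest Il6 level at d0 and d3, while their number was 747 at d0, 106 at d3 fracture and 54 at d3 polytrauma. At d5 fracture the 2 pericyte-like clusters of 19 cells each had 611 and 71.2 CPM, and at d5 polytrauma the 95 pericyte-like cells had 203 CPM. The class joins clusters led by Tagln, Mustn1 or Myh11 with clusters led by Rgs5, as the markers for the name were high in both. No list of smooth muscle markers was used, so the name does not tell pericytes from smooth muscle cells of vessels.

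Summed over the FAP/MP-like clusters of a library, Il6 had 375 CPM at d0, 325 at d3 fracture, 264 at d3 polytrauma, 466 at d5 fracture and 83.7 at d5 polytrauma. These levels were below those of pericyte-like cells in each library but d5 fracture, where pericyte-like cells together had 392 CPM. This class held 61.1% of the UMIs at d0 but 13.2% at d3 fracture, 13.7% at d3 polytrauma, 17.5% at d5 fracture and 36.0% at d5 polytrauma, so most d3 cells lie outside it, in clusters led by division genes or in clusters with no name, among them 1497 cells of d3 polytrauma with 4 of the 5 FAP/MP markers. Within the class the log2 difference from d0 was -0.21 at d3 fracture and -0.51 at d3 polytrauma, against -1.79 and -1.55 over all cells. Different clusters make up this class in each library, with 6 clusters at d0 (led among others by Ifi205, Stmn4, G0s2, Clu, Inmt and Mrgprg), those led by Saa3 and by Clec3b at d3 fracture, those led by Ccl8, Cox4i2 and Saa3 at d3 polytrauma, those led by Cxcl14 and Pi16 at d5 fracture and those led by Cxcl10, Mest, Pi16 and Ankrd1 at d5 polytrauma. The chondrocyte-like cells of the d5 libraries had 10.7 CPM after fracture and 11.5 after polytrauma, the lowest Il6 levels among the named classes of d5 apart from the 29 hematopoietic-like cells of d5 polytrauma (10.5 CPM on 3 UMIs). Of the 188 chondrocyte-like cells of d5 polytrauma, 89 (47.3%) carried a barcode that was also in another library and had under 10 times the UMIs it had there, and the part of this in their level was not tested.

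**Figure D3:**
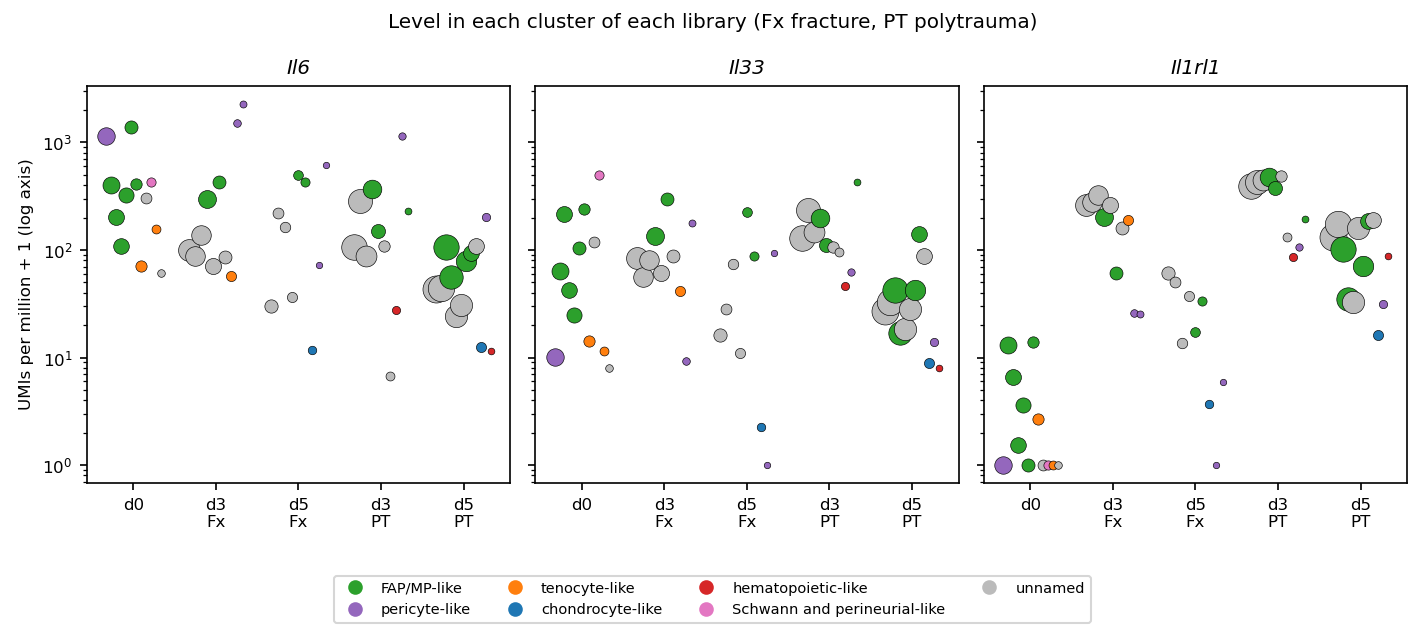
Levels of Il6, Il33 and Il1rl1 in each cluster of each library, in CPM + 1 on a log axis, with each point a cluster, its area following its number of cells and its colour its class. Il6 is highest or next highest in a pericyte-like cluster at d0 and d3, and Il1rl1 is between 158 and 321 in most d3 fracture clusters but near 25 in the pericyte-like ones.

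Il1rl1 at d3 was spread over most clusters. At d3 fracture an unnamed cluster of 959 cells led by Ddah1 and Itm2a had 321 CPM, and the other clusters had 158 or more, apart from the FAP/MP-like cluster led by Clec3b and Pi16 (372 cells, 59.7 CPM) and the pericyte-like clusters (24.8 and 24.5 CPM). At d3 polytrauma the FAP/MP-like cluster led by Ccl8, Clec3b and Pi16 (866 cells) had 472 CPM, close to the 482 CPM of the highest cluster, while pericyte-like cells had 105 CPM. A cluster with Pi16 among its leading genes was therefore among the low clusters at d3 fracture, and another was among the high ones at d3 polytrauma. Each library was clustered on its own, so these clusters are not matched as the same population. The FAP/MP-like cluster of d3 fracture led by Saa3, with 158 CPM or more, had the same share of listed Pi16 progenitor markers (60%) as the Clec3b and Pi16 cluster. The contrast also rests on the assignment of the exchanged libraries. In the FAP/MP-like clusters as a whole, Il1rl1 had 5.73 CPM at d0, 173 at d3 fracture, 421 at d3 polytrauma, 23.8 at d5 fracture and 90.0 at d5 polytrauma.

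The other cells known for ST2 were checked by their markers. Of the 6 mast cell markers, Cpa3 and Fcer1a had 0 UMIs in every library, the summed list was at most 0.631 CPM, and no cell had 2 of the markers. Of the 6 T cell and innate lymphoid markers, Cd3e had 0 UMIs in every library, the summed list was at most 2.75 CPM, and 2 of 1438 thinned cells of d5 fracture (0.139%) had 2 of the markers, with 0 such cells in the other libraries. The 6 hematopoietic markers summed to 40.7 CPM at d0, 22.7 at d3 fracture, 86.7 at d3 polytrauma, 13.1 at d5 fracture and 17.2 at d5 polytrauma, highest in the library that was also highest for Il1rl1. The 91 hematopoietic-like cells of d3 polytrauma had 85.8 CPM of Il1rl1, with a UMI in 6.67% of the 75 that could be thinned, below the 44.0% of the library. Those cells had a median of 3736 UMIs against 15688 in the library, and without cells with 2 markers of another cell type the log2 difference of d3 polytrauma from d0 was 6.86.

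Il33 was highest at d0 in the Schwann and perineurial-like cluster of 140 cells (499.6 CPM, 432 to 575) and in FAP/MP-like clusters led by Mrgprg (239 CPM) and by Stmn4 and Pi16 (216 CPM), and lowest in the pericyte-like cluster (9.02 CPM) and in a cluster of 65 cells led by Bglap2 and Bglap, genes of osteoblasts (3 UMIs). At d3 fracture the cluster led by Clec3b and Pi16 was highest, at 297 CPM. At d3 polytrauma an FAP/MP-like cluster of 34 cells led by Saa3, Spp1 and Stra6 had 429 CPM, and it also had 3 of the 7 Schwann and perineurial markers. The cluster of that library led by Ccl8, Clec3b and Pi16 had 195 CPM, beside 157 for the whole library and 234 for the unnamed cluster of 1497 cells led by Sfrp1. Clusters with Pi16 among their leading genes were thus above their library in Il33 at d0, d3 fracture and d3 polytrauma.

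Il11ra1 differed among the classes. Its level in FAP/MP-like clusters was 552 CPM at d0, 393 at d3 fracture, 283 at d3 polytrauma, 453 at d5 fracture and 193 at d5 polytrauma, against 102, 32.8, 90.6, 33.3 and 60.9 CPM in pericyte-like cells in the same order. FAP/MP-like clusters were above pericyte-like cells in every library. At d0 the cluster led by Bglap2 had 835 CPM and tenocyte-like cells 791. Chondrocyte-like cells were low, at 60.1 CPM at d5 fracture and 53.8 at d5 polytrauma. Within FAP/MP-like clusters the log2 difference of d3 fracture from d0 was -0.49 for Il11ra1, against -1.72 over all cells, and 1.07 for Il1r1, against 0.44.

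UMIs of Il33 and Il1rl1 were counted together in cells thinned to 2000 UMIs. At d3 polytrauma 48.9% (46.2 to 51.7) of cells with an Il33 UMI also had an Il1rl1 UMI, against 42.7% (41.3 to 44.1) of cells without. At d5 polytrauma the shares were 21.2% (18.1 to 24.6) and 13.8% (13.2 to 14.5), and at d3 fracture 31.2% (27.8 to 34.7) and 29.5%. At d5 fracture 0 of 122 cells with an Il33 UMI had an Il1rl1 UMI, where 3 counts would be 2.46% and the exact interval ends at 2.98%, against 4.94% (3.83 to 6.25) of the cells without. At d0 the shares were 0.240% (1 of 417 cells) and 0.461%. The share was thus higher beside Il33 in the polytrauma libraries and lower at d5 fracture, with intervals apart, and the intervals overlapped at d0 and d3 fracture. Free RNA also gives UMIs, and its part was not tested. The hematopoietic-like cells had an Il1rl1 UMI in 6.67% (2.20 to 14.9) of 75 cells at d3 polytrauma and 4.55% of 22 at d5 polytrauma. Their median depths were 3736 and 6597 UMIs before the draw. These shares rest on few cells, and some hematopoietic cells are known for ST2, so they do not measure free RNA alone. These are single libraries, and cells of 1 library are not replicates.

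Other members of the ligand families were read from fixed lists. Il11, the ligand of the Il11ra1 chain, had 7.40 CPM at d0, 103 at d3 fracture, 217 at d3 polytrauma, 9.64 at d5 fracture and 72.1 at d5 polytrauma. As with Il1rl1, d3 polytrauma was the highest library and d0 the lowest. Cells with an Il1rl1 UMI had an Il11 UMI more often than cells without, at 25.9% (24.3 to 27.6) against 18.9% (17.6 to 20.2) at d3 polytrauma and 13.8% (12.2 to 15.6) against 3.73% (3.37 to 4.13) at d5 polytrauma. Cells with an Il11 UMI had an Il11ra1 UMI less often than cells without, at 14.8% (11.98 to 18.04) against 27.5% (26.3 to 28.8) at d3 fracture. The shares were 11.6% (9.14 to 14.4) against 25.3% (24.4 to 26.1) at d5 polytrauma. The gap was smaller at d3 polytrauma, at 32.4% (29.9 to 35.0) against 38.1% (36.7 to 39.5). The intervals overlapped at d0 (47.6% of 42 cells, 32.0 to 63.6, against 52.5%) and at d5 fracture (1 of 12 cells, against 34.4%). Clcf1, a cytokine of the same family, was also higher at d3 (4.93 CPM at d0, 30.8 at d3 fracture, 46.4 at d3 polytrauma). Osm, the ligand of Osmr, had between 1 and 20 UMIs per library, Il1a at most 7 UMIs, and Il1b at most 1.78 CPM, so the ligands of Osmr and Il1r1 were close to undetected in these sorted cells. Of the 10 other IL-6 family ligands, 4 had at least 20 UMIs for d3 fracture against d0, with 2 past 2-fold higher and 0 lower. Of all genes, 13.8% were higher and 31.9% lower in that comparison.

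Of the 7 other IL-6 family receptors, 2 could be compared for d3 fracture against d0 and both were past 2-fold lower. Of all genes, 31.9% were lower in that comparison. For d3 polytrauma against d0, 3 could be compared, with 0 higher and 2 lower, beside 31.0% of all genes lower. Lifr, which pairs with gp130 for LIF, had 31.3 CPM at d0, 6.46 at d3 fracture, 10.2 at d3 polytrauma, 20.7 at d5 fracture and 15.97 at d5 polytrauma. Lifr was thus lowest at d3, where Lif was highest. Cntfr, the ciliary neurotrophic factor receptor, had 12.4 CPM at d0, 1.75 at d3 fracture and 1.55 at d3 polytrauma. Il1rap, the accessory chain for both ST2 and the IL-1 receptor, had 6.71 CPM at d0, 3.29 at d3 fracture, 5.24 at d3 polytrauma, 7.17 at d5 fracture and 5.37 at d5 polytrauma, and did not share the d3 peak of Il1rl1.

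Genes of the JAK-STAT3 pathway and its feedback were read from a list of 12. Of these, 0 were past 2-fold higher and 4 lower at d3 fracture, 0 and 6 at d3 polytrauma against d0, then 5 and 0 for d5 against d3 fracture and 4 and 0 for d5 against d3 polytrauma. Their median log2 differences were -0.68, -0.90, 0.90 and 0.95 in these comparisons, beside -0.43, -0.42, 0.71 and 0.51 for all genes, and -0.11, -0.37, 0.16 and 0.46 under median-of-ratios scaling. The shares of all genes were 31.9% and 31.0% lower at d3 and 40.1% and 29.4% higher at d5, and nothing particular to the list is read from its counts. Socs3, a feedback inhibitor of gp130 signalling, had 322 CPM at d0, 80.2 at d3 fracture, 86.3 at d3 polytrauma, 703 at d5 fracture and 328 at d5 polytrauma. Socs1, of the same inhibitor family, had 21.6, 8.86, 8.72, 169 and 80.5 CPM in that order. Both were at their lowest in the d3 libraries and highest at d5 fracture. Cish, another feedback gene, had 25.7 CPM at d0, 4.22 at d3 fracture and 4.32 at d3 polytrauma.

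Genes known to be induced by these cytokines split. Of 14 listed, 6 were past 2-fold higher and 7 lower at d3 fracture against d0, and 5 and 6 at d3 polytrauma, beside 13.8% and 14.1% of all genes higher and 31.9% and 31.0% lower. Their median log2 differences were -0.76 and -0.63, and -0.18 and -0.10 under median-of-ratios scaling. Timp1, an inhibitor of matrix metalloproteinases, had 102 CPM at d0, 2717 at d3 fracture, 1959 at d3 polytrauma, 695 at d5 fracture and 1583 at d5 polytrauma. Saa3, an acute phase gene, had 2.98, 80.2, 153, 25.9 and 12.5 CPM in that order. Cebpd, a transcription factor of the acute phase response, ran the other way, with 250.1 CPM at d0, 24.5 at d3 fracture, 19.2 at d3 polytrauma, 662 at d5 fracture and 400.3 at d5 polytrauma. Cebpd, like Socs3, was lowest in the d3 libraries and highest at d5 fracture, whereas Timp1 was highest at d3 fracture. Of 14 genes of IL-1 and IL-33 signalling, 0 were higher and 2 lower at d3 fracture, and 0 and 5 at d3 polytrauma, beside the same shares of all genes, with a median log2 difference of -0.72 in both, and of -0.14 and -0.19 under median-of-ratios scaling. Among them Myd88, the adaptor of these receptors, had 97.4 CPM at d0, 26.4 at d3 fracture and 31.0 at d3 polytrauma. Socs3 and Cebpd are also known to respond to tissue dissociation, the stress genes above were highest at d0 and d5 fracture, and their part in these levels was not tested.

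**Figure D4:**
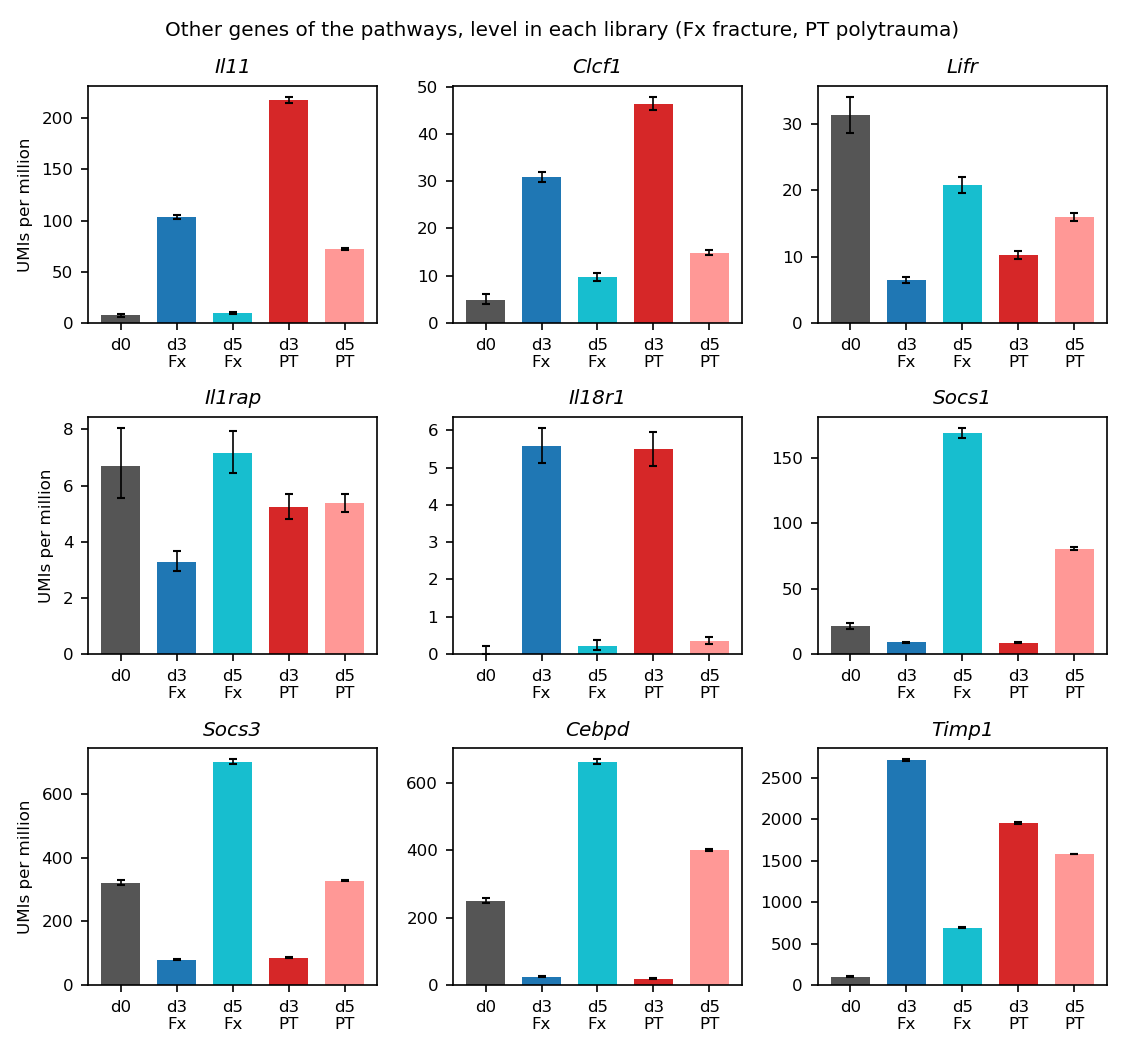
Levels of 9 other genes of the pathways (ligands, partner receptors, feedback and induced genes) in the 5 libraries, as bars in CPM from 0, each panel with its own scale, with exact 95% Poisson intervals (counting error only). Il11 is highest at d3 polytrauma (217) and Socs3 at d5 fracture (703).

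Genes with the pattern closest to a member were taken by Pearson correlation of log2(CPM + 10) over 43 library-by-cluster units of at least 100 cells, among 11996 genes. For Il6 these were Tiparp (0.85), Fosl2 (0.85) and Errfi1 (0.84), and over the 32 units without d0 their values were 0.81, 0.77 and 0.89. For Il33 they were Gng12 (0.83), Pdpn (0.78) and Efemp1 (0.78), with 0.91, 0.81 and 0.71 without d0. For Il1rl1 they were Rpl10a (0.92), Rpl15 (0.91) and Rbms2 (0.90), with 0.84, 0.81 and 0.84 without d0. Units of 1 library share its preparation and depth, so these are descriptions of how the levels ran together and no p is given.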

How the data were processed

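GFP+ cells of 5 libraries were measured. The study names the 3' kit v2 for all of them, while the d5 libraries drew on another set of barcodes than d0 and d3. The authors deposited raw UMI counts per gene and barcode, made with Cell Ranger on mm10 (the matrix headers give software version 3.1.0) with replicate mice pooled in each library. Barcodes with 350 to 8000 genes, under 20% mitochondrial UMIs and at least 1000 UMIs were retained. Depth ran from 17437190 (d0) to 202233564 UMIs (d5 polytrauma). Counts were summed per library and given as CPM. With 1 library per condition no test was made, and log2 ratios carry exact 95% Poisson intervals. Counts are of 3' ends and not per length, so levels were not compared between genes. Clusters were made per library in Seurat 5.3.0 (20 components, resolution 0.5) and named from at least 3 markers above the mean of the other clusters. A cluster stayed unnamed if another class had as large a share of its own markers or more of them among the 10 leading genes, if division genes led it, if it was shallow with no marker among the leading genes, or if only fibroblast markers fitted and none led (a condition added after the clusters were seen, which left them without that name). Scrublet (scanpy 1.11.5) scored doublets, which were kept and removed only in an alternative. Its automatic threshold marked 0 cells in 4 of the 5 libraries, so there the highest scores at a rate of 0.8% per 1000 cells were taken. Interval code was tested on simulated data.

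Members, gene lists and markers were chosen with earlier results of these data known. All 9 members were described. Of the other lists, a gene could be named if past 2-fold with at least 20 UMIs in 1 of the 2 libraries, the 3 largest per list and comparison, and Lifr, Il1rap, Socs3, Il11, Osm, Il1b and Il1a always. Genes most like Il6, Il33 and Il1rl1 were the 3 with the highest correlation, among genes with at least 500 UMIs. Il18r1, Il18rap, Il1r2 and Il1rl2 were shown for their position beside Il1rl1. Alternatives changed the scaling, the cells kept, the depth, the weight of cells and the assignment of conditions. Promoters (RefSeq, GRCm38.p6) matched 9 of 9 members. 1 gene of the lists is not reported here.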

Additional observations from a re-analysis of the deposited data

Results flagged for a closer look

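The direction of 4 members differed between the injuries or between the days. No difference of this kind could be tested with 1 library per condition, and all of them involve d5 fracture, the library with shared barcodes. On the log2 scale, Il6 was 0.22 at d5 against d3 after fracture and -1.47 after polytrauma, and polytrauma against fracture was 0.24 at d3 and -1.45 at d5. Without barcodes found in another library, Il6 was -0.27 for d5 against d3 after fracture, the same direction as after polytrauma. Il33 for polytrauma against fracture was 0.93 at d3 and -0.35 at d5. Il11ra1 was 0.62 at d5 against d3 after fracture and -0.80 after polytrauma, and 0.66 at d3 and -0.76 at d5 for polytrauma against fracture. Il1r1 was 0.11 at d5 against d3 after fracture and -0.16 after polytrauma. Under median-of-ratios scaling, d5 against d3 after fracture was -0.52 for Il6, -0.12 for Il11ra1 and -0.62 for Il1r1, which is the direction seen after polytrauma. These pairs of comparisons also hold the libraries whose conditions were exchanged. Under the milder barcode rule Il6 after fracture was 0.22.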

How the results depend on the processing

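No paired analysis was possible because each condition has 1 library, and no library could be left out of a condition. The members past 2-fold numbered 6 for d3 fracture against d0, with 5 to 6 under every alternative, but they were not always the same genes. In FAP/MP-like clusters alone Il6 and Il11ra1 fell short of the limit and Il1r1 passed it, and under median-of-ratios scaling Osmr fell short. Of the 54 log2 differences, 48 and 50 moved beyond their counting intervals in these settings. Shares of all genes were not counted under alternatives of cells or scaling. For d3 polytrauma against d0 they numbered 6, and 3 in FAP/MP-like clusters alone, with 4 when cells were thinned or weighted equally. For d5 against d3 fracture they numbered 1, and 4 under median-of-ratios scaling, 3 without cells with 2 markers of another cell type, 0 with conditions as deposited, and 2 each with cells thinned to 2000 UMIs, without barcodes found in another library, without doublets, in FAP/MP-like clusters alone and with each cell weighted equally. For d5 against d3 polytrauma they numbered 3, and 5 under median-of-ratios scaling. For d3 polytrauma against d3 fracture they numbered 0, and 1 in FAP/MP-like clusters alone (Il1rl1, log2 1.28) and 1 with conditions as deposited. For d5 polytrauma against d5 fracture they numbered 2, and 1 without barcodes found in another library and 5 in FAP/MP-like clusters alone. Lif (log2 -0.97) and Il6ra (-0.98) lie at the limit for d5 against d3 fracture. With conditions as deposited, Il1rl1 turned to 0.67 for d5 against d3 fracture, 1.88 for d5 against d3 polytrauma and -1.71 for d5 polytrauma against d5 fracture. Alternatives for Lif, Il6, Il6ra and Il1rl1 at d3 against d0 kept the direction throughout. Depth limits Il1rl1 (63 UMIs) and Lif (147 UMIs) at d0.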
